A study of Mus musculus with 5 samples.

Results

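Late preosteoblasts that express Dmp1 were taken from the sorted femur marrow stroma as cells with transcripts of Dmp1 (dentin matrix protein 1) and Spp1 (osteopontin) but without the high osteocalcin transcripts of a mature osteoblast. Transcripts were counted as unique molecular identifiers (UMIs), each standing for 1 captured molecule. The quality filter asked for 500 or more genes, 1000 or more UMIs and under 25% of a cell's UMIs from mitochondrial genes. A member then held no UMI of the leukocyte gene Ptprc, at least 2 UMIs of Dmp1, at least 1 of Spp1, and under 20 UMIs of the osteocalcin genes Bglap and Bglap2 together per 10000 of its UMIs. Of 47829 cells past the filter, 755 were members. Members were thus chosen by measured values, the UMIs of Dmp1, Spp1, Bglap, Bglap2 and Ptprc, so the levels of these genes and the shares of members are descriptions, without a test.

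Cells of the bone lineage pass from marrow stromal progenitors through preosteoblasts to osteoblasts, which secrete type I collagen, and some osteoblasts are buried in the matrix as osteocytes. Dmp1, Spp1, Ibsp and Mepe encode SIBLING proteins, acidic phosphoproteins that are secreted and bind mineral, and Fam20c is the Golgi kinase that phosphorylates them. Dmp1 is widely used as a marker of the passage towards the osteocyte. In the marrow, reticular cells that express the leptin receptor gene Lepr secrete Cxcl12 and Kitl, which hold and feed blood stem cells, and their descendants include osteoblasts.

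All 5 groups were Lepr-cre; R26R-tdTomato mice, in which Cre driven by Lepr permanently labels cells that express or once expressed it, so tdTomato marks descendants too. Control mice were 15 weeks old and uninjured, naive mice had 1 bone marrow ablation at 13 weeks, and exhausted mice had 2, at 9 and 13 weeks, both groups being taken at 15 weeks. Aged mice were 18 months old and uninjured, and aged-injury mice were 18 months old and taken 1 week after 1 ablation. Femurs without growth plates or proximal ends were dissociated, tdTomato-positive cells were sorted, and each group gave 1 BD Rhapsody library. How many mice were pooled, their sex and any batch or date were not stated by the labels. The series text speaks of 4 groups but lists these 5. With 1 library per group, differences between libraries have no replicate check, and intervals (95% throughout) cover counting error only. Age, surgery, time since surgery and library cannot be told apart where they differ together, as in aged-injury against naive (1 week against 2 weeks after surgery).

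Values for all libraries are listed below in library order, which is control, naive, exhausted, aged, then aged-injury. Members numbered 84, 83, 34, 72 and 482 in library order. Their summed UMIs ran from 360215 (exhausted) to 8206808 (aged-injury), and their median UMIs per cell from 9297 to 15953. The median mitochondrial share ran from 7.56% (aged-injury) to 14.0% (naive). Doublets were not called. Cells with more than 3 times the median UMIs of their library's filtered cells made up 1, 11, 1, 2 and 53 of the members in library order. Any 2 libraries shared at most 5 cell barcodes among all deposited cells.

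The label was first set beside its given markers. All 6 (Dmp1, Spp1, Fam20c, Bmp8a, Bmp3 and Ank) were detected in the members of every library. Dmp1 and Spp1 were required by the rule, so only the other 4 bear on the label. Detection in summed cells is a weak criterion, since all 14 reticular markers met it in every library too. Levels are given as CPM, the counts of a gene per 1000000 of the members' summed UMIs. Fam20c stood at 257, 242, 180, 333 and 293 CPM in library order. Ank, a transporter that exports the mineralisation inhibitor pyrophosphate, stood at 510, 835, 933, 557 and 844 CPM and was lowest in the 2 uninjured libraries. Both genes were far lower in reticular cells, defined below, where Fam20c reached at most 11.6 CPM and Ank 50.8 CPM. This comparison does not set the members apart from other cells of the bone lineage. Bmp3, a BMP family ligand, lay between 298 and 406 CPM and Bmp8a between 77.7 and 154 CPM in the members. Among the genes used by the rule, Dmp1 had 1033, 1218, 1766, 1324 and 1267 CPM, and Spp1 had 24181, 19844, 17803, 20834 and 26243 CPM.

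Ibsp, the bone sialoprotein and the other abundant SIBLING member, was high in every library, at 11766, 9107, 9533, 10222 and 11368 CPM in library order. Mmp13, a collagenase of late osteoblast and hypertrophic cartilage cells, stood at 16652, 12912, 11307, 10481 and 13003 CPM. Tnc, the matrix glycoprotein tenascin C, stood at 7626, 9530, 7118, 6273 and 5243 CPM. None of these 3 genes was 2-fold apart between any of the 6 pairs of libraries compared. Wif1, a secreted Wnt inhibitor that marks preosteoblasts, had at least 1 UMI in 79.8%, 89.2%, 79.4%, 69.4% and 77.0% of members. The bone transcription factor genes Runx2 (960 to 1550 CPM) and Sp7 (144 to 272 CPM), the vitamin D receptor gene Vdr (788 to 1003 CPM) and the parathyroid hormone receptor gene Pth1r (156 to 285 CPM) were present in all 5 libraries.

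Sost, the osteocyte's Wnt inhibitor, had a UMI in 0 of 84 control members, 1 of 83 naive, 1 of 34 exhausted, 0 of 72 aged and 6 of 482 aged-injury members. Fgf23, the phosphate hormone, stayed at 1.83 CPM or below. Mepe, a SIBLING gene of late osteoblasts and osteocytes, had a UMI in 0, 6, 4, 2 and 27 members in library order. Its level was 129, 361, 24.5 and 15.2 CPM in the other 4 libraries, and its 0 UMIs in control allow up to 2.73 CPM. Phex, a protease gene needed for phosphate balance, was found at 278, 238, 350, 382 and 354 CPM, but reticular cells reached 153 to 510 CPM, so its level did not set the members apart from them.

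The share of members among Ptprc-negative filtered cells was 1.12% in control (84 of 7493; exact Clopper-Pearson interval 0.895 to 1.39%), 1.02% in aged (0.800 to 1.28%) and 0.956% in exhausted (0.663 to 1.33%). It was 1.95% in naive (1.56 to 2.42%) and 2.49% in aged-injury (2.28 to 2.72%). The 2 libraries taken after a single ablation had the highest shares, and the intervals of control, exhausted and aged overlapped. A sort and a UMI minimum set which cells were counted, and median depth differed. Each cell with at least 2000 UMIs was therefore also thinned to 2000. Cells with fewer were left out, and every term of the rule, Ptprc included, was applied again to the thinned counts. The Ptprc-negative cells counted thus changed, from 3557 to 4040 in exhausted and from 19326 to 17236 in aged-injury. The shares were then 0.450%, 0.947%, 0.347%, 0.433% and 1.03% in library order, and naive and aged-injury were again the 2 highest. Free RNA was gauged in Ptprc-positive cells, which should lack Dmp1. At least 2 Dmp1 UMIs were found in 0.341%, 0.704%, 0.184%, 0.197% and 1.75% of these cells in library order, at median depths of 7885 to 12256 UMIs. The last value rests on 3 of 171 cells (0.363 to 5.04%). In aged-injury the background interval spanned the members' share. This background asked for Dmp1 only, while members also met the Spp1 and osteocalcin terms, so the criteria differ. A second comparison used cells with Lepr and Cxcl12 transcripts, which can include members. In library order, 0.781%, 0.283%, 0.252%, 0.851% and 1.00% of them had at least 2 Dmp1 UMIs. In aged-injury these were 143 of 14269 cells (0.845 to 1.18%). The part of free RNA in the members' share was not tested.

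**Figure D1:**
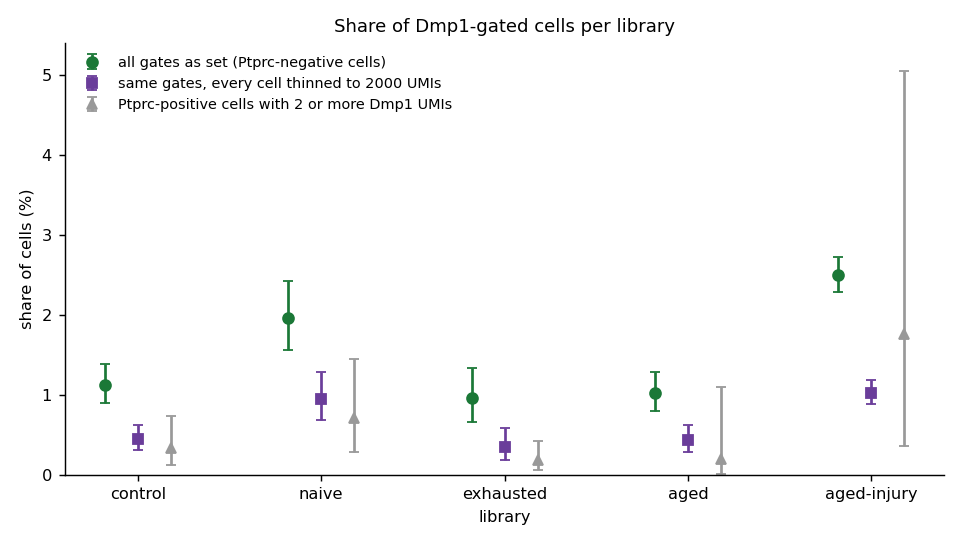
Share of cells in the 5 libraries, in percent with exact 95% counting intervals: members among Ptprc-negative filtered cells (circles), the same rule reapplied to cells thinned to 2000 UMIs (squares), and Ptprc-positive cells with at least 2 Dmp1 UMIs (triangles). Circles of naive (1.95%) and aged-injury (2.49%) stood above control, exhausted and aged, which lay between 0.956% and 1.12%.

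Within the bone lineage the order was different. Members were set beside 2 neighbouring gates in the Ptprc-negative cells: an osteocalcin gate (at least 20 Bglap and Bglap2 UMIs per 10000) and a Wif1 gate (at least 2 Wif1 UMIs, at most 1 Dmp1 UMI, low osteocalcin). For each osteocalcin-gated cell there were 1.58, 2.44, 1.00, 1.71 and 0.850 members in library order. Members made up 11.4%, 9.68%, 8.15%, 11.8% and 17.0% of the 3 gates together. Aged-injury thus had the largest part of the lineage in the Dmp1 gate while having the fewest members per osteocalcin-gated cell.

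The edge of the rule was broad. Over all libraries 169 members had exactly 2 Dmp1 UMIs and 77 had 3, while 594 cells that met the other terms had 1 and fell outside. Spp1 stood at 6364 CPM in the cells with 1 Dmp1 UMI, 12420 CPM with 2 and 19139 CPM with 3, and Cxcl12 at 19846, 12596 and 7775 CPM. Cells just inside the Dmp1 limit therefore held a larger reticular signal than those further in. Another 124 cells failed only for want of an Spp1 UMI, and 109 members had 1 to 5. Those 109 held 167 CPM of Spp1 and 20316 CPM of Cxcl12, but also 1409 CPM of Dmp1 and 48082 CPM of Col1a1. They were not alike across libraries. In aged they held 285 CPM of Dmp1 and 2637 of Col1a1, and in aged-injury 1948 and 67703 CPM. On the osteocalcin side 97 members had 10 to 20 UMIs per 10000, and 73 cells with 20 to 40 and 144 with 40 or more lay outside.

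Cxcl12 divided the members. It was under 20 UMIs per 10000 in 580 members, from 20 to 100 in 62 and at 100 or more in 113. The last class held 16 of 84 control members and 16 of 72 aged ones (22.2%), 77 of 482 in aged-injury (16.0%), but 2 of 83 in naive (2.41%) and 2 of 34 in exhausted (5.88%). Compared with the low class, the high class had 2577 against 251 CPM of Lepr, 1825 against 139 CPM of Kitl and 2903 against 36.7 CPM of Adipoq, the adiponectin gene of reticular cells and adipocytes. It had 361 against 1519 CPM of Dmp1, 6608 against 29472 CPM of Spp1 and 4158 against 15178 CPM of Mmp13. In the high class 58 of 113 cells (51.3%) had exactly 2 Dmp1 UMIs, against 89 of 580 (15.3%) in the low class. The 16 Cxcl12-high members of aged held 170 CPM of Spp1, 371 of Mmp13 and 4.47 of Wif1, which sets them far from the other members of that library. Whether such cells express both sets of genes or hold RNA from 2 cells was not tested.

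**Figure D2:**
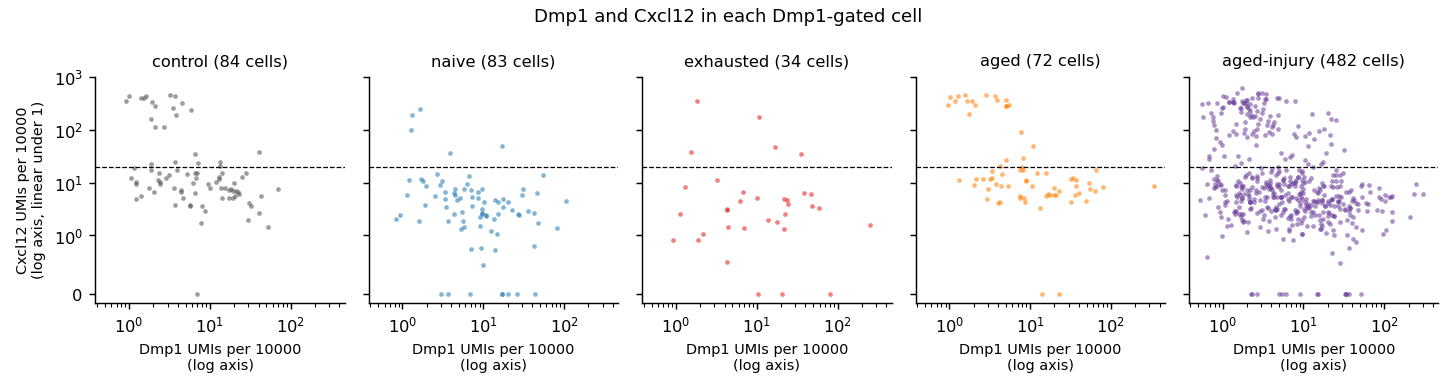
Dmp1 against Cxcl12 in each member, in UMIs per 10000 UMIs of the cell on log axes, 1 panel per library, with a dashed line at 20 for Cxcl12. Most members lay below the line (72.6%, 94.0%, 85.3%, 70.8% and 74.9% in library order), and those far above it lay at low Dmp1.

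Reticular markers as a whole moved with the libraries in the same way. All 14 reticular markers had UMIs in the members of every library, and none was at 0. Their summed level was 12516, 3785, 4608, 20114 and 9106 CPM in library order. Cxcl12 itself stood at 6992, 1380, 2260, 12506 and 4927 CPM, and Lepr at 1030, 415, 358, 1679 and 566 CPM. As Cxcl12 drew the classes and made up a large part of the sum, the sum does not show that all 14 moved together. The uninjured libraries were the highest for both Cxcl12 and Lepr. For each pair of libraries, it is therefore also stated how many genes stayed 2-fold apart among the 580 members with low Cxcl12. Where no second ratio is printed for a gene, its ratio is for all members only.

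Members were also divided by Dmp1 into 338 cells under 5, 255 cells from 5 to 20 and 162 cells with at least 20 UMIs per 10000. Since Dmp1 was part of the rule and the classes come from the same cells, the trends are descriptions. The lowest class also held the most Cxcl12. Members with at least 100 Cxcl12 UMIs per 10000 had 72.3 CPM of Fam20c and 164 of Ank, against 332 and 949 CPM in Cxcl12-low members. As 2 Dmp1 UMIs were required, cells of low depth could not enter the lowest class. Median UMIs were 15763, 12745 and 11586 from the lowest to the highest class. The trends within Cxcl12-low members were not tested. Spp1 stood at 17910, 29448 and 36321 CPM from the lowest to the highest class, Fam20c at 177, 333 and 495 CPM and Ank at 472, 817 and 1640 CPM. For each of these genes, and for Bmp3 (220, 388 and 499 CPM) and Bmp8a (71.6, 125 and 172 CPM), the highest class stood above the lowest in 5 of 5 libraries. The middle class was not always between them, as for Ank in exhausted members, at 351, 237 and 2407 CPM. Phex was 232, 181 and 868 CPM, higher in the top class in 4 of 5 libraries, and Mepe was 11.9, 7.02 and 147 CPM. Alpl, the alkaline phosphatase that frees phosphate for mineral, went the other way in 4 of 5 libraries (1230, 1358 and 1013 CPM). Cxcl12 (8487, 1899 and 1312 CPM), Lepr, Kitl and Adipoq were lower in the top class in 5 of 5.

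**Figure D3:**
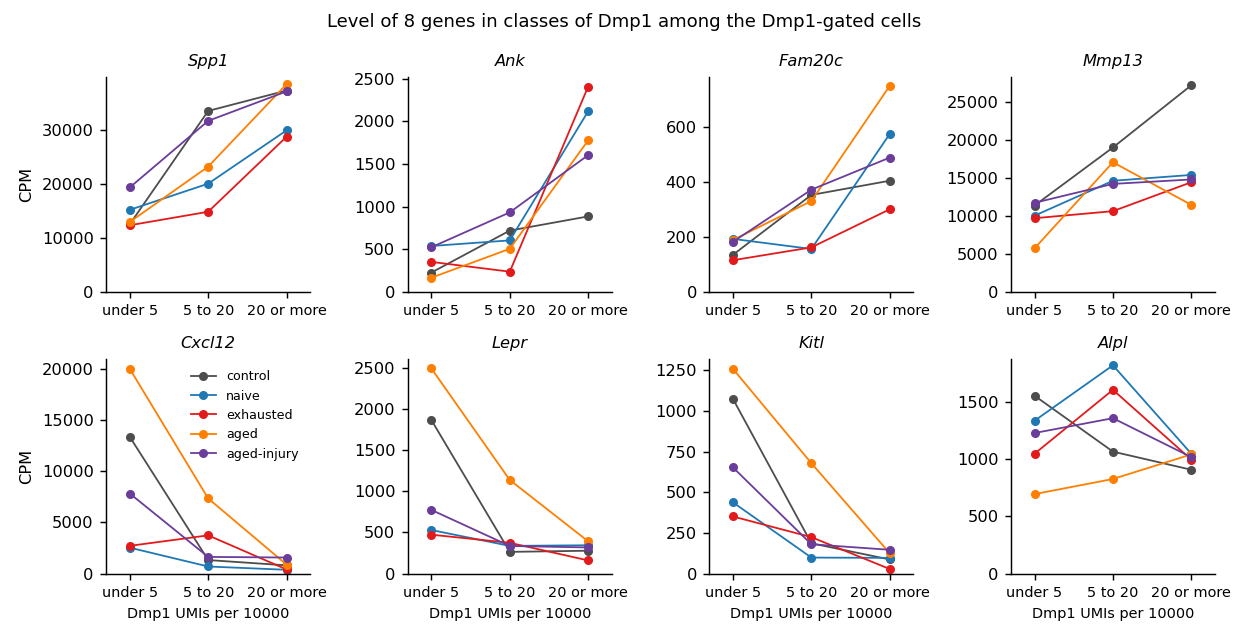
Levels of marker genes (CPM, linear axis) in members with under 5, 5 to 20 and at least 20 Dmp1 UMIs per 10000, 1 line per library. Fam20c, Ank and Spp1 were higher in the top class than in the lowest in 5 of 5 libraries, and Cxcl12 was lower in 5 of 5.

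The members were then compared with neighbouring cells within each library. UMIs were summed per gate and library, so that the library was the replicate, and tested with edgeR's quasi-likelihood test with library as a block and Benjamini-Hochberg adjustment over all genes tested. The third neighbour was a reticular gate (at least 1 Lepr UMI, at least 20 Cxcl12 UMIs per 10000, no Dmp1 or Wif1 UMI, low osteocalcin). The gates were drawn on transcripts of the same cells, so genes that accompany a gate gene differ by construction. The test says only that a difference recurred across the 5 libraries, which are of 5 different conditions. Genes of the rules and the given markers were left out of it.

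Against osteocalcin-gated cells, members had fewer transcripts of fibrillar collagen genes and more of the collagenase gene Mmp13. Col1a1, the main chain of bone collagen, stood at 11497, 32394, 26917, 14164 and 40287 CPM in members and at 92898, 160076, 108678, 83332 and 151037 CPM in osteocalcin-gated cells, a log2 difference of -2.71 (SE 0.16, adjusted p = 3.8e-08). The ranges of the 2 gates did not overlap. Mmp13 went the other way, at 1695, 586, 1473, 5176 and 737 CPM in the osteocalcin gate, a log2 difference of 2.86 (SE 0.34, adjusted p = 2.6e-05). Enpp1, which makes pyrophosphate, was 390, 547, 411, 485 and 490 CPM in members and 99.5, 42.6, 199, 147 and 30.1 CPM in the osteocalcin gate (log2 difference 2.17, SE 0.32, adjusted p = 0.00017). Ibsp was higher in members in all 5 libraries as well (log2 difference 0.60, SE 0.13, adjusted p = 0.0040), although it is known as a gene of mature osteoblasts. Of 6941 genes tested, 762 (11.0%) were higher and 766 (11.0%) lower in members. Without the aged-injury library the counts were 408 and 382, and without the library block 439 and 469.

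By gene group, 22 of 27 genes of bone matrix and collagen processing were lower in members than in the osteocalcin gate and 3 were higher, with a median log2 difference of -1.02 (-0.01 over all genes tested). Besides Col1a1, the lower genes included Col1a2 (-2.70), Sparc, which encodes osteonectin (-2.59), and Col11a1 (-4.15), and the higher ones were Tnc (1.73), Col12a1 (0.92) and Postn (0.75). Of 9 mature osteoblast genes tested, 8 were lower, among them Smpd3, a sphingomyelinase needed for mineralisation (-3.49), Car3 (-3.12) and Ifitm5 (-2.48), and Ibsp alone was higher. Of 15 proteases and inhibitors 9 were higher and 2 lower, with Timp3 (2.16), Htra1 (1.90) and Timp1 (1.21) higher and Mmp2 (-1.13) and Mmp16 (-1.24) lower. Of 12 bone transcription factor genes 6 were lower, including Sp7 (-1.06) and Dlx3 (-1.47), and none was higher; Runx2 did not pass (0.23, adjusted p = 0.29). Phex did not pass either (-0.28, adjusted p = 0.22). Of 8 inflammatory genes tested 6 were higher and none lower, such as Tnfaip3, a brake on NF-kappa-B signalling (2.24). Of 8 Notch pathway genes 4 were higher, among them the ligand gene Jag1 (1.35). Kitl (2.02), Adipoq (2.38) and Grem1 (1.77), which are reticular genes, were higher in members, and the Cxcl12-high cells described above were part of those sums.

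Outside the listed groups, Cd55, which restrains complement (log2 difference 4.19), Ace, the angiotensin-converting enzyme (3.51), Steap4, a metalloreductase (3.36), and Ccn5, a matricellular protein (3.07), were among the 10 higher genes with the largest differences. Among the 10 lower ones were Prss35, a serine protease family member (-5.76), Col11a2 (-4.88) and Cthrc1, a collagen repeat protein of repair tissue (-3.88).

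Against Wif1-gated cells, members had more of most bone matrix genes and of Enpp1 and Vdr. Of 11854 genes tested, 1090 (9.2%) were higher and 1264 (10.7%) lower, and without the library block 614 and 784. Ibsp stood at 4474, 3399, 3717, 4786 and 5293 CPM in the Wif1 gate, below the members in every library (log2 difference 1.33, SE 0.10, adjusted p = 2.8e-06). Col1a1 was 4596, 9296, 5976, 3450 and 17943 CPM there (log2 difference 1.75, SE 0.14, adjusted p = 5.1e-06). Of the 27 bone matrix genes 18 were higher in members and 3 lower (median 0.44, against 0.01 over all genes tested), and of the 9 mature osteoblast genes 6 were higher and none lower, with Dlx3 at 2.74 and Ifitm5 at 2.17. Enpp1 (2.44), Vdr (1.81) and Phex (1.19) were higher as well, and of the 11 mineralisation genes 5 were higher and 3 lower. Alpl was lower (-0.47, adjusted p = 0.0054).

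Signalling genes also separated members from Wif1-gated cells. Dkk1, a secreted Wnt antagonist (log2 difference 3.42), and Ackr3, a scavenger receptor for the Cxcl12 protein (3.58), were higher in members in 5 of 5 libraries. Of 28 BMP and TGF-beta genes 15 were lower and 5 higher, the lower ones including the BMP antagonists Nog (-2.37) and Grem1 (-2.18), the ligand gene Gdf10 (-4.25) and the BMP target Id1 (-1.32). Of 21 Wnt pathway genes 9 were lower and 5 higher, the lower ones including the inhibitor genes Sfrp2 (-2.90) and Sfrp1 (-2.34), the target Axin2 (-1.52) and the R-spondin genes Rspo2 (-1.76) and Rspo3 (-1.99). Of 21 interferon response genes 18 were lower and none higher (median -0.94), such as Iigp1 (-1.68), Ifit1 (-1.38) and H2-K1 (-1.02). Of 16 inflammatory genes 8 were lower, with Cxcl10 at -2.35 and Il6 at -2.23, and 1, Ptgs2, was higher at 1.05. Npnt, the matrix protein nephronectin, was lower at -2.78.

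Against the reticular gate, members had more of most bone matrix and preosteoblast genes and less of most interferon response and inflammatory genes. Of 13760 genes tested, 1759 (12.8%) were higher and 2594 (18.9%) lower. All 13 preosteoblast genes tested were higher (median 2.40, against -0.07 over all genes tested), and 8 of 9 mature osteoblast genes were higher and 1, Lox, lower (median 5.18). Of 27 bone matrix genes 20 were higher and 3 lower, and of 11 mineralisation genes 7 were higher and 1 lower. Postn, periostin of the bone surface, was 996, 1040, 1199, 1295 and 912 CPM in members and 3.60, 22.0, 14.9, 2.79 and 39.5 CPM in reticular cells (log2 difference 6.55, SE 0.53, adjusted p = 5.7e-07). Col13a1 (7.79), Col2a1, the cartilage collagen (7.20), Alpl (3.46) and Sp7 (3.31) were higher as well. Kitl stood at 595, 235, 228, 871 and 426 CPM in members and at 2522, 2291, 2219, 2604 and 2154 CPM in reticular cells (log2 difference -2.54, SE 0.21, adjusted p = 7.5e-07). The control and aged members, which had the highest shares of Cxcl12-high cells, had the most Kitl. Of the 21 interferon response genes 20 were lower (median -1.22), and of 17 inflammatory genes 13 were lower and 1, Ptgs2 again, higher (median -1.80). Of 19 immediate early genes 11 were lower and 2 higher.

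**Figure D4:**
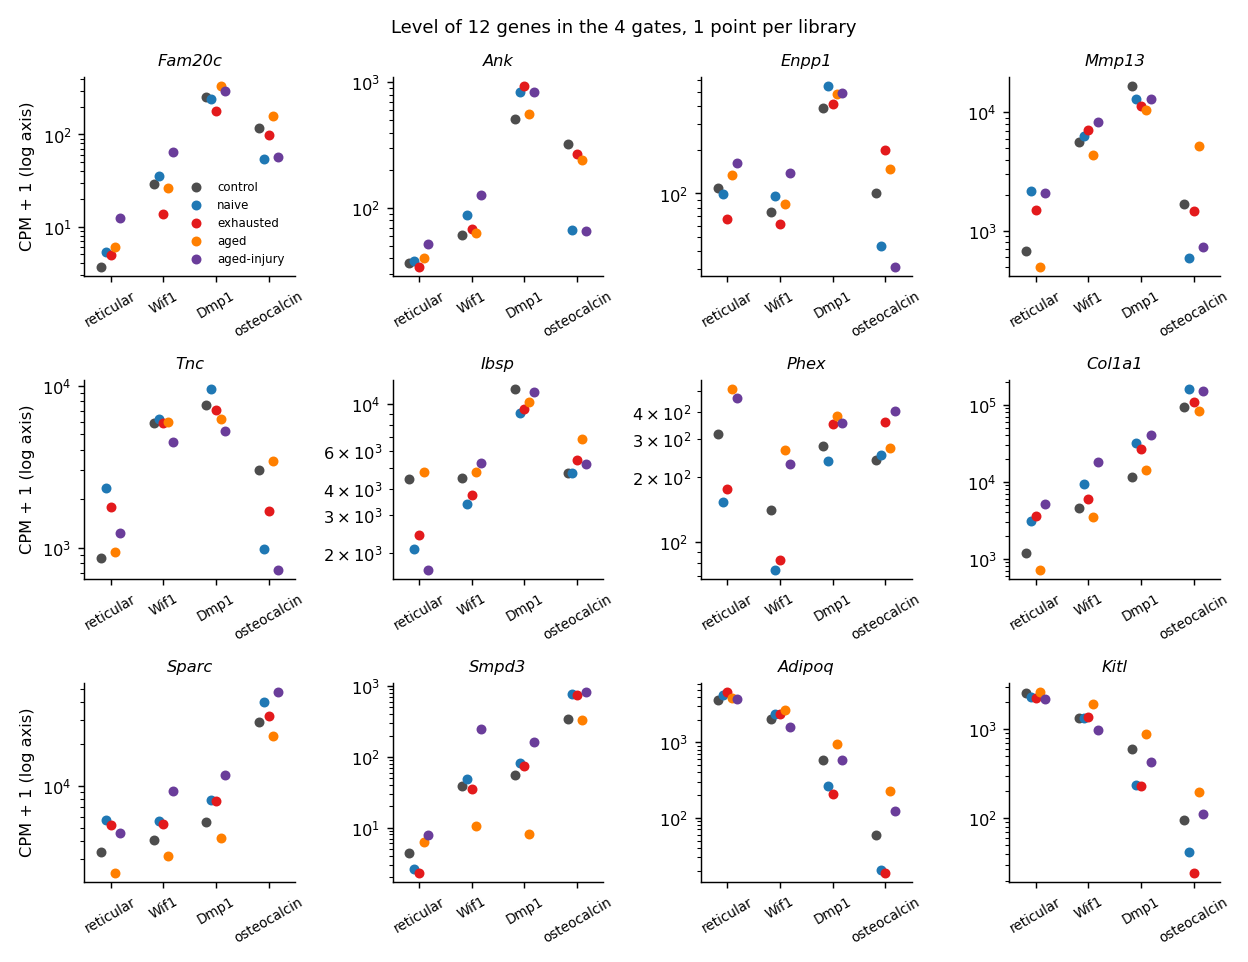
Levels of 12 genes (CPM + 1, log axis) in the reticular, Wif1, Dmp1 and osteocalcin gates, 1 point per library. Enpp1 was highest in the Dmp1 gate in all 5 libraries, Col1a1 and Sparc were highest in the osteocalcin gate, and Kitl and Adipoq in the reticular gate.

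Between libraries, a gene was called when it was at least 2-fold apart, had at least 50 CPM in either library and at least 20 UMIs in the higher one. In naive against control, members had more type I collagen transcripts and fewer of Cxcl12 and Lepr. Col1a1 was 2.82-fold higher (interval 2.76 to 2.88), and 2.55-fold higher among the Cxcl12-low members. Col1a2, the second chain of type I collagen, was 2.22-fold higher (2.17 to 2.27; 2.11 among Cxcl12-low members). Col11a1 stood at 355 against 66.3 CPM, a ratio of 5.35 (4.16 to 6.97). Fn1, fibronectin, was at 807 against 291 CPM, 2.77-fold higher, and Vcan, the proteoglycan versican, at 93.3 against 6.36 CPM, 14.7-fold higher (6.87 to 37.4). For Vcan 1 naive cell held 36.3% of the UMIs, and without cells above 3 times the median UMIs the ratio was 7.12. Col3a1 was 6.67-fold higher, but 1 naive cell held 43.0% of its UMIs; among Cxcl12-low members it had 723 UMIs in naive and 8 in control. Of 3801 genes measured 80 were higher (2.1%) and 147 lower (3.87%). Of 25 bone matrix genes 5 were higher and 1, Ogn, was lower (median log2 ratio 0.55, against -0.02 over all genes measured).

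The naive members were lower than control for Cxcl12 (5.07-fold, 4.79 to 5.36), Lepr (2.48-fold) and Kitl (2.53-fold). Among Cxcl12-low members Kitl differed by 1.13-fold, and Lepr was 1.33-fold higher in naive. Igfbp5, an IGF-binding protein gene, was 4.63-fold lower over all members and 1.45-fold higher among Cxcl12-low members. Spon1, the matrix protein spondin, differed in a like way in both sets of cells, at 12.8 against 139 CPM over all members (10.9-fold lower, 6.28 to 20.3) and 9.88-fold lower among Cxcl12-low members. Fos (1838 against 3810 CPM) and Egr1 (1097 against 2688 CPM), immediate early genes, were 2.07-fold and 2.45-fold lower, and 1.99-fold and 2.24-fold among Cxcl12-low members. Of 19 immediate early genes 4 were lower and none higher. Of the 80 higher genes 61, and of the 147 lower genes 84, were still 2-fold apart among Cxcl12-low members.

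Exhausted members were few, at 34, and single cells weighed on them. Mepe was at 361 CPM against 0 UMIs in control, at least 132-fold higher against a floor of 3 counts, but 1 cell held 55.4% of the UMIs. Bmp2, a bone-inducing ligand, was at 497 CPM against 88.1 in control and 80.5 in naive, and 1 cell held 50.8% of its UMIs. Collagen was close to naive: Col1a1 was 2.34-fold higher than control (2.28 to 2.40) and 1.20-fold lower than naive. Vcan (103 against 6.36 CPM) and Spon1 (11.1 against 139 CPM) differed from control in the same directions as in naive, which used the same control library. Tnfsf11, the gene of the osteoclast growth factor RANKL, was at 97.2 CPM against 223 in control (2.29-fold lower, 1.60 to 3.36) and 205 in naive (2.11-fold lower). Its decoy receptor gene Tnfrsf11b was at 69.4 against 21.8 CPM in control, 3.18-fold higher (1.74 to 5.82).

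Calls against exhausted rested partly on a single member with osteoclast genes. That cell, with 18453 UMIs, held all UMIs of Acp5, Atp6v0d2, Ocstamp, Dcstamp and Oscar among exhausted members, 87.2% of Ctsk and 98.2% of Mmp9. The summed osteoclast markers were 1791 CPM in exhausted and 192 to 387 CPM elsewhere. Against control 136 genes were higher (3.64% of 3735) and 209 lower (5.6%), of which 107 and 189 were still 2-fold apart without that cell. Against naive 127 were higher (3.37% of 3767) and 168 lower (4.46%), of which 89 and 145 were. Recounted without that cell, 83 were higher. Among Cxcl12-low members 114 of the 136 higher and 146 of the 209 lower genes against control were still 2-fold apart. Against naive 108 of the 127 and 155 of the 168 were.

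Aged and control members, both uninjured, had their main bone genes within 2-fold of each other. Col1a1 was 14164 against 11497 CPM, Ibsp 10222 against 11766 CPM and Mmp13 10481 against 16652 CPM. Of 24 bone matrix genes 1, Dcn, was higher and none lower (median -0.20). Of 3782 genes measured 98 were higher (2.59%) and 73 lower (1.93%). Inflammatory genes leaned upwards, with 5 of 11 measured higher and 1 lower (median 0.86). Ccl2, a monocyte chemokine, was at 290 against 13.6 CPM, 21.3-fold higher, but 1 aged cell held 49.3% of its UMIs and the Cxcl12-low members of the 2 libraries held only 2 and 1 UMIs. Cxcl1, a neutrophil chemokine, was at 273 against 20.9 CPM over all members and differed by 1.70-fold among Cxcl12-low members. Both chemokines thus lay mostly in the Cxcl12-bearing members.

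The differences of Col15a1 and Smpd3 were at least as large in the Cxcl12-low cells. Col15a1, a collagen of basement membrane zones, was at 113 against 6.36 CPM (17.7-fold higher, 8.19 to 45.5) and 18.8-fold higher among Cxcl12-low members. Smpd3 was at 7.21 against 54.5 CPM (7.56-fold lower, 3.06 to 24.1) and 10.4-fold lower among them, where 3 aged and 59 control UMIs were counted. Il34, a ligand of the macrophage receptor Csf1r, was at 67.8 against 22.7 CPM, 2.99-fold higher. Of the 98 higher genes 49 were still 2-fold apart among Cxcl12-low members, and of the 73 lower ones 53. Recounted in those cells alone, with fewer UMIs, 148 genes were higher and 136 lower.

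In aged-injury against aged, members had more collagen transcripts, and fewer reticular ones. Col1a1 stood at 40287 against 14164 CPM in aged, 2.84-fold higher (2.79 to 2.90), and 2.13-fold higher among Cxcl12-low members. Sparc was 2.84-fold higher (2.73 to 2.94; 2.34 among Cxcl12-low members), Fn1 5.26-fold (4.32 to 6.47; 3.78) and Col11a1 4.91-fold (3.96 to 6.15; 3.72). Smpd3 was at 164 against 7.21 CPM, 22.7-fold higher (9.69 to 69.9), on 5 aged UMIs. Cthrc1 was at 75.3 CPM against 0 UMIs, at least 17.4-fold higher, and Npnt at 61.2 against 4.33 CPM. Top2a, a gene of dividing cells, was at 71.9 against 7.21 CPM. Of 25 bone matrix genes 8 were higher and 1, Dcn, lower (median 0.84, against -0.05 over all genes). Of 3793 genes measured 164 were higher (4.32%) and 216 lower (5.69%). TMM scaling, which balances the libraries on most of their genes, moved every log2 ratio of this pair up by 0.14, giving 256 higher and 153 lower genes.

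Lower in aged-injury than in aged were Igfbp5 (2781 against 13127 CPM), Cxcl12 (4927 against 12506 CPM) and Lepr (566 against 1679 CPM). Among Cxcl12-low members Igfbp5 was 1.71-fold and Lepr 1.64-fold lower. Ccl2 was 6.23-fold lower over all members and 1.12-fold higher among Cxcl12-low members, on 2 aged UMIs. Il34 was at 11.3 against 67.8 CPM, 5.98-fold lower (4.12 to 8.59), and 25.7-fold lower among Cxcl12-low members, on 15 and 27 UMIs. However, 1 aged cell, itself Cxcl12-low, held 48.9% of all Il34 UMIs of the aged members, so both ratios rest largely on that cell. Of the 164 higher genes 122, and of the 216 lower ones 140, were still 2-fold apart in the Cxcl12-low cells.

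**Figure D5:**
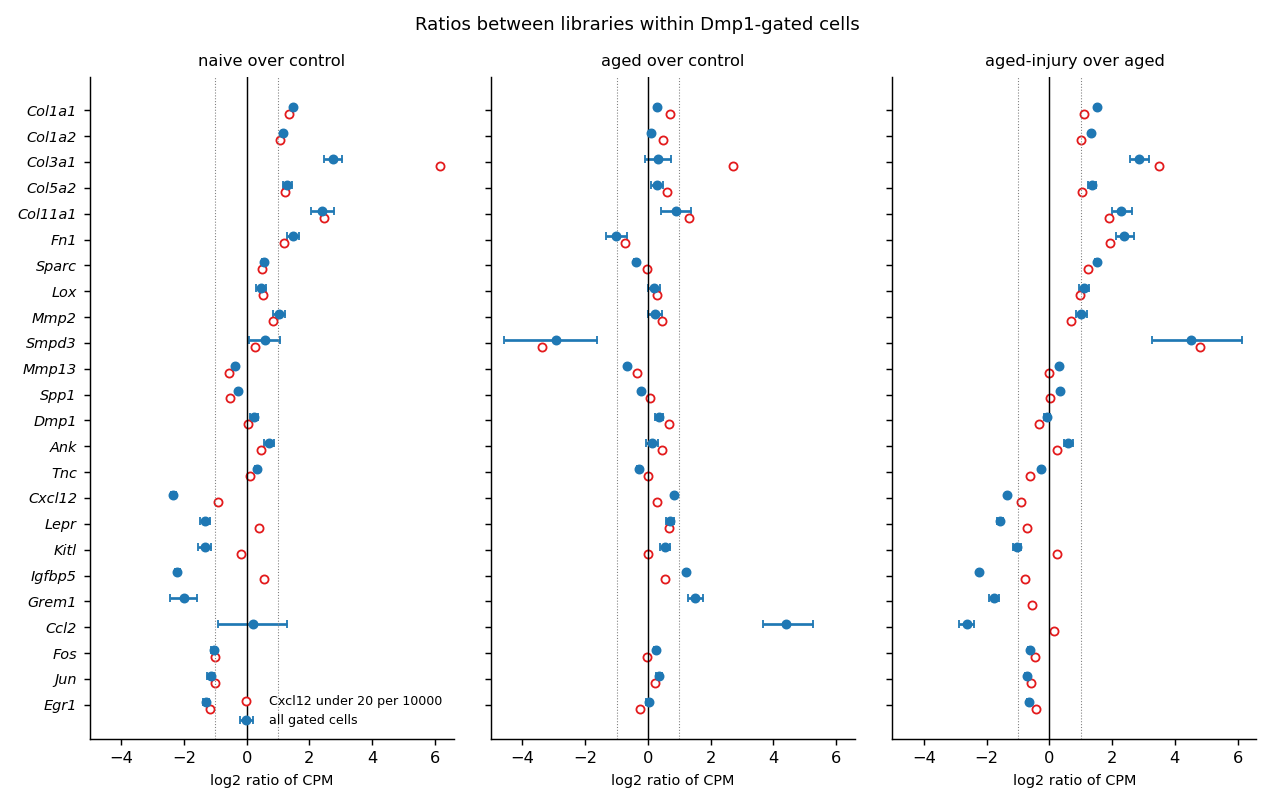
Log2 ratios of 24 genes between members of naive and control, aged and control, and aged-injury and aged; filled points are all members with 95% counting intervals, and open points are members with under 20 Cxcl12 UMIs per 10000, drawn where the higher library had at least 20 UMIs; dotted lines mark 2-fold. Col1a1 lay to the right in both ablation pairs in both sets of cells, at 2.82-fold and 2.84-fold over all members, while Igfbp5 in naive against control changed side among Cxcl12-low members.

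Set side by side, aged-injury and naive members had similar collagen levels, with Col1a1 at 40287 and 32394 CPM and a median log2 ratio of 0.00 over the bone matrix genes. Of 3757 genes 111 were higher (2.95%) and 122 lower (3.25%) in aged-injury, and with TMM scaling 163 and 68. Among Cxcl12-low members 77 of the 111 and 105 of the 122 were still 2-fold apart. Col15a1 was at 122 against 15.5 CPM, 7.86-fold higher (4.89 to 13.6) and 6.62-fold higher among Cxcl12-low members. Fat3, an atypical cadherin of preosteoblasts, was at 126 against 387 CPM, 3.06-fold lower. Mepe was at 15.2 against 129 CPM, 8.46-fold lower (6.61 to 10.9), with a UMI in 27 of 482 aged-injury and 6 of 83 naive members. Of 19 immediate early genes 3 were higher and none lower (median 0.54). These libraries differ in age and in time since surgery, which cannot be told apart.

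Among markers of other cells, the adipocyte list summed to between 583 and 1251 CPM in the members, the fibroblast list to between 267 and 586, the pericyte and smooth muscle list to between 264 and 420, and the macrophage list to between 15.1 and 155 CPM. T and NK, megakaryocyte, Schwann and B lineage lists summed to at most 30.5 CPM and the endothelial list to between 7.27 and 30.2 CPM. Haemoglobin and other genes of red cells summed to 9650, 287, 702, 2846 and 1493 CPM in library order, and neutrophil genes to 491, 86.0, 211, 51.9 and 10.2 CPM. Both lists were highest in control. At least 100 haemoglobin UMIs were found in only 2 of 84 control, 1 of 72 aged and 5 of 482 aged-injury members. Chondrocyte markers were detected for 7, 8, 4, 5 and 14 of 15 genes, summing to 1246, 966, 847, 1204 and 3162 CPM. Col10a1, of hypertrophic cartilage, was at 521 CPM in aged-injury, where 6 members had at least 5 UMIs of it, and at 1.83 CPM or below in the other 4 libraries. The part of these markers in the differences between libraries was not tested.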

How the data were processed

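The deposited values were whole-number UMI counts per gene and cell without normalisation, 1 matrix for each of 5 libraries. Per the submitters' processing notes, Seurat 5.1 and genome build GRCm39 were used. The aligner, the counting tool and the cell caller are not named there. Joining the matrices by symbol gave 30099 symbols, and 57968 deposited cells became 47829 after the filter. The members and the 21 gene lists were chosen with earlier results of these data known, and the rule was applied as given.

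Counts were summed over members per library and scaled to CPM. Library pairs were compared by the ratio of CPM with exact conditional binomial intervals, a 0 being set to 3 counts. Gates were compared with edgeR 4.0.16 (quasi-likelihood, TMM, library as block, threshold 0.05; R 4.3.3), each sum needing at least 10 cells; DESeq2 1.42.0 was an alternative. Sums and figures used Python 3.11.15, numpy 2.4.6, scipy 1.17.1, pandas 2.3.3 and matplotlib 3.10.9. The edgeR and ratio steps were tested on simulated data. The p-values describe the spread over 5 libraries of different conditions.

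Named genes were the rule's genes, the given markers, members of the lists, up to 8 per direction per pair (2-fold apart by summed and mean-of-cell levels, with a UMI in at least 10% of the higher library's members) and up to 10 per direction per gate test with 1 direction in all libraries. Fn1 and Igfbp5 were named after their values were seen, and the Cxcl12 classes were drawn after the members were examined.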

Additional observations from a re-analysis of the deposited data

Results flagged for a closer look

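6 genes lay at least 2-fold apart in opposite directions after ablation in the young and the old pair, with 1 library in each group. The difference between the pairs was not tested. Airn, an antisense RNA of the Igf2r locus, had a log2 ratio of 1.06 in naive against control and of -1.18 in aged-injury against aged. Dennd4c had 1.19 and -1.27, Dpyd 1.22 and -1.46, Ppfia2 1.18 and -1.73, and Tmtc2 1.40 and -1.02. Mxd1 went the other way, at -1.09 in the young pair and 1.29 in the old one.

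Transcripts of a feature named EGFP, which the labelled genotype does not include, were counted in the members at 429 CPM in aged-injury, 233 in control, 162 in naive and 83.3 in exhausted. In aged the feature was not listed. In reticular-gated cells it stayed at 2.2 CPM or below, and in osteocalcin-gated cells it reached 2027 to 2694 CPM in the 4 libraries that list it.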

How the results depend on the processing

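Among Cxcl12-low members the log2 ratio changed direction for Rgs4 in naive against control (0.0903), Sntb1 in aged against control (-0.0863), and Ccl2 (0.16) and Gprc5a (0.95) in aged-injury against aged, beside the turns of Igfbp5 and Lepr given above. Without the osteoclast-gene cell that of Hilpda in exhausted against naive did (-0.64). C3 and Il1rn had 0 UMIs in Cxcl12-low exhausted members, so no direction against control is given there. With at least 1 Dmp1 UMI in place of 2 the share of members was 2.04% in control, 2.85% in naive, 2.17% in aged and 4.53% in aged-injury. With at least 3 it was 0.827% in control and 1.93% in aged-injury. Without the Spp1 term it was 1.52% in control, 1.52% in aged and 2.76% in aged-injury. With osteocalcin under 10 per 10000 it was 0.794% in aged and 2.19% in aged-injury, and under 40 it was 2.74% in aged-injury. Over all filtered cells the exhausted share was 0.542%. Thinning to 2000 UMIs gave 0.450%, 0.947%, 0.347%, 0.433% and 1.03% in library order. Without the filter on low counts the 2-fold counts (higher, lower) were 2756 and 2334 for naive against control, 4652 and 1146 for exhausted against control, 4523 and 1080 for exhausted against naive, 3171 and 1107 for aged against control, 1106 and 7797 for aged-injury against aged, and 1000 and 7136 for aged-injury against naive. In these counts a 0 was still set to 3 counts. A gene without UMIs in the smaller library could thereby be counted as higher there. Summed UMIs ran from 360215 in exhausted to 8206808 in aged-injury, so these counts reflect the floor as well as expression. Without cells above 3 times the median UMIs, 140 were higher in naive against control, 203 higher and 263 lower in exhausted against naive, and 175 higher in aged-injury against naive. Without the osteoclast-gene cell, 83 were higher in exhausted against naive. Among Cxcl12-low members 148 were higher and 136 lower in aged against control, and 326 lower in aged-injury against aged. With TMM scaling 256 were higher and 153 lower in aged-injury against aged, in place of 164 and 216, and 68 lower in aged-injury against naive. The causes of the other moves were not tested.

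Gate sums of 1 library come from the same cells' preparation, so library was the replicate block. Without the block 439 genes were higher and 469 lower than in the osteocalcin gate, 614 and 784 against the Wif1 gate, and 1599 and 2221 against the reticular gate. Leaving out each library in turn gave 408 to 880 higher and 382 to 807 lower against the osteocalcin gate. The lowest counts were without aged-injury, which holds most of the members. Without cells above 3 times the median UMIs, 491 were higher and 411 lower there, and without the low-count filter 1905 were lower against the Wif1 gate. DESeq2 gave 619 higher and 587 lower against the osteocalcin gate. Depth limits the exhausted library most, with 34 members and 360215 UMIs.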

Other observations

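The tdTomato transcript had at least 1 UMI in 54.8%, 50.6%, 44.1%, 37.5% and 55.4% of members in library order, and in 5.66% to 33.3% of Ptprc-positive cells. At least 1 UMI of the division genes Mki67 or Top2a was found in 9.52%, 6.02%, 14.7%, 6.94% and 15.8% of members. Such shares, like those of Wif1 above, also depend on depth. Median UMIs of members ran from 9297 in exhausted to 15953 in aged-injury, and the shares are not adjusted for this.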
